A study of Homo sapiens with 6 samples.

Results

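Hyaluronan synthesis, breakdown and receptor genes were examined in the established human lung adenocarcinoma cell line A549 after transfection of siRNAs against CONCR. Of 8 genes chosen by function (CEMIP2, CEMIP, CD44, HAS2, HAS3, HYAL1, HYAL2 and HYAL3), 7 had a transcript cluster, the array's unit for 1 gene or transcript, annotated to that symbol alone. They are 7 of 22411 genes with such a cluster. HYAL1 had none in the annotation used here and was not analysed. Where a gene had more than 1 cluster, the brightest by the mean of all 6 arrays stood for it, a choice that concerned CD44 alone among these genes. The mean over both groups chose the cluster, and the fall of CEMIP2 was already known when the genes were gathered. The CEMIP2 difference is therefore given as a description, with no p.

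The cells of 3 arrays received a combination of siRNAs targeting the long noncoding RNA CONCR, and those of 3 arrays received a control siRNA. All were grown with 10% serum and transfected at 40 nM on consecutive occasions 24 h apart. The series calls the 3 knockdowns independent, but separate cultures are not stated, so the p-values describe the spread among these 6 samples, and that spread may be technical. In such bulk RNA, fewer cells of a type and less RNA per cell cannot be told apart. The study addressed the part of CONCR in sister chromatid cohesion.

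Hyaluronan is a long, unsulphated sugar polymer of the pericellular matrix. Hyaluronan synthases in the plasma membrane (HAS2, HAS3) build it from UDP-glucuronic acid and UDP-N-acetylglucosamine and extrude it. Hyaluronidases of the HYAL family and the related proteins CEMIP and CEMIP2 take part in its depolymerization, and CD44 is its main cell-surface receptor.

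Values are RMA log2 signals, so 1 unit is a doubling of signal. Signals of different genes come from different probes and are not compared with one another. Median log2 signals over transcript clusters were 3.83 to 3.89 on the 6 arrays, and correlations between arrays were 0.989 to 0.993 within groups and 0.987 to 0.991 between groups. The targeted RNA CONCR (DDX11-AS1) read 4.23, 4.49 and 4.64 on the CONCR siRNA arrays, against 4.71, 4.71 and 4.64 on the control siRNA arrays. This difference of -0.23 (SE 0.10) did not pass (limma adjusted p = 0.42), so it does not check the labels. The epithelial keratins KRT8 and KRT18 averaged 11.3 and 11.6 with CONCR siRNA, while the epithelial adhesion gene EPCAM read under 4 on all arrays (2.79 to 2.84 with CONCR siRNA, 2.71 to 2.79 with control siRNA). The keratins KRT7 and KRT19 averaged 6.03 and 4.82 with CONCR siRNA. Of 7 tested epithelial markers 0 passed in limma, with 1, CDH1, at an unadjusted p below the threshold of 0.05. CDH1 was lower with CONCR siRNA, at a log2 difference of -0.22.

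CEMIP2 and CD44 were the genes whose signals differed, and they did so in opposite directions. CEMIP2, a transmembrane protein described as a cell-surface hyaluronidase, was 2.65-fold lower with CONCR siRNA. CD44 rose 1.36-fold. The synthases, the soluble relative CEMIP and the hyaluronidases HYAL2 and HYAL3 differed by less than 0.1 log2 units and did not pass, or were not tested.

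The promoter sequences of CEMIP2 and CD44, the pair of genes that differed, are shown to place them in the genome. Each run is the 250 bases before the RefSeq transcription start, from build GRCh38.p14, written 5′ to 3′ on the gene's strand, and the capitals mark GC boxes (GGGCGG or, on the other strand, CCGCCC).
CEMIP2, chr9:71768514-71768763, minus strand: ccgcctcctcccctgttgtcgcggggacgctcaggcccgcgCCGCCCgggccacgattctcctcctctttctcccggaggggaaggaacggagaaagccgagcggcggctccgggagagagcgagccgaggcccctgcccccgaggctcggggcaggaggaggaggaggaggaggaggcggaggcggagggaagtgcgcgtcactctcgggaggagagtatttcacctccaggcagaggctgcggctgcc
CD44, chr11:35138921-35139170, plus strand: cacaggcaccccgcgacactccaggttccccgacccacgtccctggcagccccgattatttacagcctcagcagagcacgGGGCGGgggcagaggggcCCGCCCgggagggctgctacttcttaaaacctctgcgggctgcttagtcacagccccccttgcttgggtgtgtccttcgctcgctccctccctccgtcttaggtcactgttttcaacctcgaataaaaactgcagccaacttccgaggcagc
The CEMIP2 window held 1 GC box and 25 CG dinucleotides at 71.6% G and C. The CD44 window held 2 GC boxes and 15 CG dinucleotides at 62.4% G and C. A GC box occurs in 42.3% of 27305 RefSeq promoter windows of this length, and their median content of G and C is 58%. Neither window held a TATA box (TATAAA, found in 11.1% of windows on either strand), an AP-1 site (TGACTCA, 4.16%), a CRE (TGACGTCA, 1.77%), an E-box of MYC and MAX (CACGTG, 6.49%) or an E2F site (TTTGGCGC, 0.553%). CEMIP, the closest relative of CEMIP2, had 3 GC boxes and a TATA box 30 bases before its start. These matches are descriptions of letters and not of bound factors.

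CEMIP2 (gene ID 23670, chromosome 9) read 7.27, 7.07 and 7.20 on the CONCR siRNA arrays, against 8.51, 8.66 and 8.59 on the control siRNA arrays. Every CONCR siRNA array lay more than 1 log2 unit below every control siRNA array, as the plot of the genes on each array shows. The group means were 7.18 ± 0.10 for CONCR siRNA and 8.59 ± 0.08 for control siRNA (SD, n = 3 each). The log2 difference was -1.40 (SE 0.07, 95% confidence interval -1.57 to -1.23). As the fall was known beforehand, the interval describes the spread of these arrays and is not a test. Among 15497 tested genes it ranked 2nd from the lowest difference. Leaving out any 1 array moved it between -1.45 and -1.35.

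**Figure D1:**
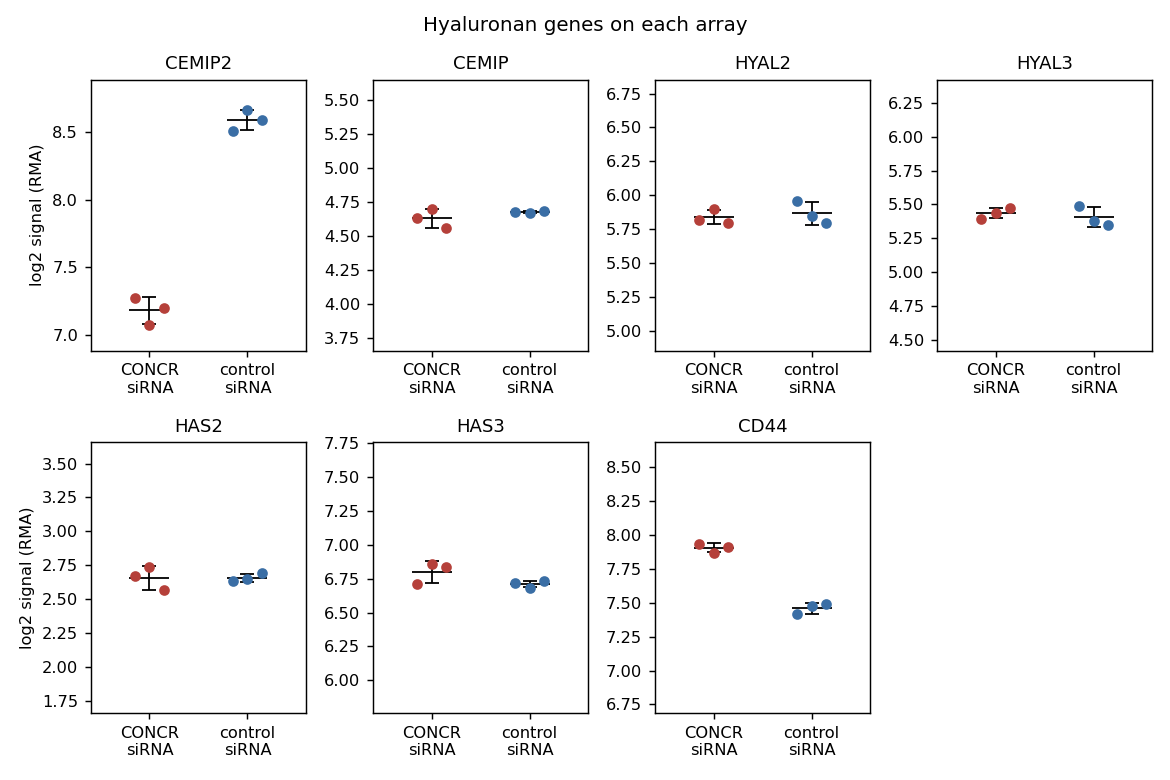
Log2 RMA signal of 7 hyaluronan genes on each array, CONCR siRNA at left (red) and control siRNA at right (blue) in each panel. Points are arrays, black bars are the mean ± SD of 3 arrays, and every panel spans 2 log2 units around its own centre; the groups stand apart for CEMIP2 and CD44 and overlap for the other genes.

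CEMIP (gene ID 57214, chromosome 15), the secreted relative of CEMIP2 that binds hyaluronan and promotes its breakdown, had nearly the same signal in both groups. It read 4.64, 4.70 and 4.56 on the CONCR siRNA arrays, against 4.68, 4.67 and 4.68 on the control siRNA arrays. The groups overlapped, and the CONCR siRNA arrays were the more scattered (SD 0.071, against 0.0089 with control siRNA). The log2 difference was -0.05 (95% confidence interval -0.18 to 0.09, limma adjusted p = 0.82). These readings were not far above 4, the log2 signal that a cluster had to exceed to be tested. A difference in CEMIP could therefore have gone undetected.

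The hyaluronidases of the HYAL family were close to 0 difference. HYAL2 (gene ID 8692, chromosome 3), a GPI-anchored enzyme of the cell surface, read 5.82, 5.90 and 5.80 on the CONCR siRNA arrays, against 5.96, 5.84 and 5.79 on the control siRNA arrays. HYAL3 (gene ID 8372), a neighbour of HYAL2 on chromosome 3, read 5.39, 5.44 and 5.47 on the CONCR siRNA arrays, against 5.49, 5.38 and 5.35 on the control siRNA arrays. Both pairs of groups overlapped. The log2 difference of HYAL2 was -0.03 (95% confidence interval -0.18 to 0.13, limma adjusted p = 0.93), and without control siRNA replicate 1 its sign turned, at 0.02. For HYAL3 the difference was 0.03 (95% confidence interval -0.11 to 0.17, limma adjusted p = 0.90). In RefSeq HYAL3 overlaps NAA80, so signal from shared sequence cannot be assigned to either.

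The synthases did not differ past the threshold either. HAS3 (gene ID 3038, chromosome 16) read 6.71, 6.86 and 6.84 on the CONCR siRNA arrays, against 6.72, 6.68 and 6.73 on the control siRNA arrays. CONCR siRNA replicates 2 and 3 lay above all control siRNA arrays, while replicate 1 lay within their range. Its log2 difference was 0.09 (95% confidence interval -0.05 to 0.23, limma adjusted p = 0.63). HAS2 (gene ID 3037, chromosome 8) read 2.67, 2.73 and 2.56 on the CONCR siRNA arrays, against 2.63, 2.65 and 2.69 on the control siRNA arrays. All 6 of its readings were below the log2 signal of 4 that a cluster had to exceed on at least 3 arrays, so it was not tested. At so low a signal a difference in HAS2 could have gone undetected. Its difference of -0.001 had a 95% confidence interval of -0.16 to 0.16 in a fit without the filter.

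CD44 (gene ID 960, chromosome 11) read 7.94, 7.87 and 7.91 on the CONCR siRNA arrays, against 7.42, 7.47 and 7.49 on the control siRNA arrays. The groups did not overlap, and each spanned under 0.1 log2 units. The means were 7.91 ± 0.03 for CONCR siRNA and 7.46 ± 0.04 for control siRNA (SD, n = 3 each). CD44 was thus higher by 0.45 log2 units (95% confidence interval 0.32 to 0.57, SE 0.05, limma adjusted p = 0.011), and an exact permutation test gave p = 0.1, the smallest that 3 arrays against 3 allow. Among the 93 genes called higher, this rise ranked 33rd.

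The size of the CD44 rise was steady while its call was not. Leaving out 1 array at a time kept the difference between 0.42 and 0.46. The limma adjusted p was 0.061 without CONCR siRNA replicate 1, 0.056 without replicate 2 and 0.064 without replicate 3. Removal of control siRNA replicate 2 gave 0.062 and that of replicate 3 gave 0.052, and it stayed under the threshold of 0.05 when control siRNA replicate 1 was removed. A second, dimmer cluster annotated to CD44 read 3.95, 3.83 and 3.88 on the CONCR siRNA arrays, against 3.12, 3.75 and 3.30 on the control siRNA arrays. It was below the filter and, fitted without one, differed by 0.50 (95% confidence interval 0.14 to 0.86, limma adjusted p = 0.39).

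**Figure D2:**
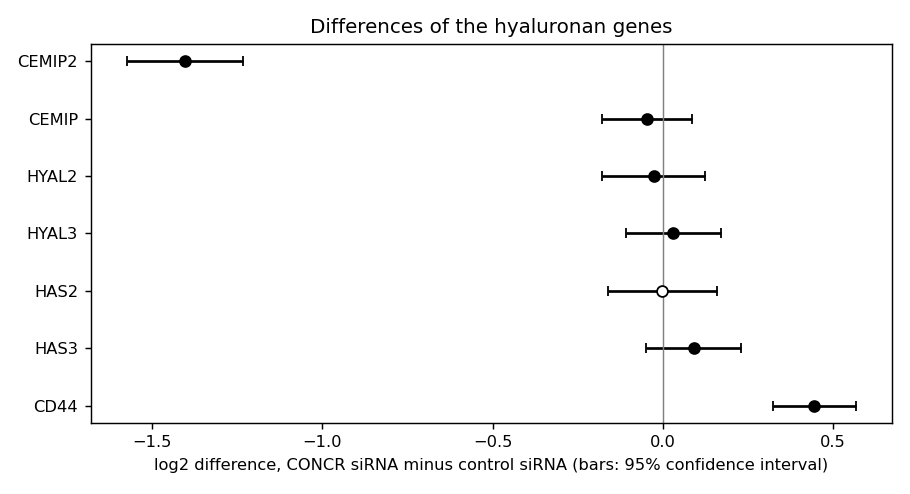
Log2 difference of each hyaluronan gene, CONCR siRNA minus control siRNA, with its 95% confidence interval from limma (3 arrays per group). The interval of CEMIP2, whose fall was known beforehand, is a description and not a test. The open point is HAS2, which was below the signal filter and is shown from the fit without one; CEMIP2 lies at -1.40, CD44 at 0.45, and the intervals of the other genes cross 0.

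Of the 5 tested genes other than CEMIP2, CD44 was past the threshold of 0.05 on the high side, and the other 4 did not pass. Over all 15497 tested genes 2.01% were lower and 0.6% higher by the same rule, and nothing is read from a count over so few genes. The median difference was 0.00 over the 6 genes with CEMIP2 included and 0.01 over all tested genes. Among all tested genes, 24.4% had no overlap between the arrays of the groups.

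Genes around the pathway were taken from 6 lists, which were drawn up by function with earlier results of these data known. They held 67 tested genes, and 1 of them, HABP2, had passed the signal filter through the CONCR siRNA arrays alone and is left out of the counts. Of the other 66, 9 were lower (13.6%) and 0 were higher in limma, with 3 higher at an unadjusted p below 0.05. Over all tested genes, also without those that passed the filter through 1 group, 2.01% were lower and 0.588% higher. Of these 15473 genes, 927 were higher at an unadjusted limma p below 0.05. The median difference of the 66 was 0.01, the same to this precision as over all tested genes. A negative sign was found for 30 of the 66, against 45.1% of all tested genes.

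**Figure D3:**
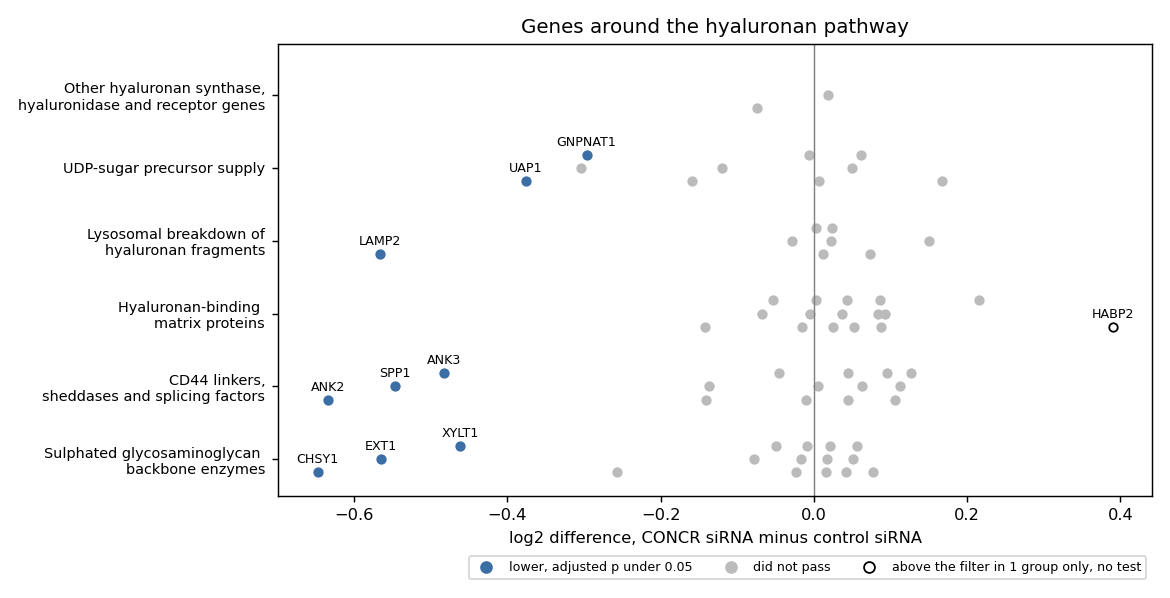
Log2 difference, CONCR siRNA minus control siRNA, of each tested gene in 6 lists around the hyaluronan pathway. Blue points were lower at a limma adjusted p under 0.05, grey points did not pass, and the open point is HABP2, shown with no test; the 9 blue points lie between -0.65 and -0.30.

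Against 2.01% of all tested genes, the supply of UDP-sugars held 2 falls among 10 tested genes, with a list median of -0.06. Both belong to the hexosamine route to UDP-N-acetylglucosamine, 1 of the 2 building blocks of hyaluronan. UAP1, which makes UDP-N-acetylglucosamine in the last step, read 5.89, 5.86 and 5.89 on the CONCR siRNA arrays, against 6.26, 6.29 and 6.23 on the control siRNA arrays. It fell by 0.38 on the log2 scale (SE 0.05, limma adjusted p = 0.016). GNPNAT1, the acetyltransferase of an earlier step, fell by 0.30 (SE 0.05, limma adjusted p = 0.041), reading 7.71, 7.71 and 7.73 on the CONCR siRNA arrays, against 7.96, 8.05 and 8.03 on the control siRNA arrays. The arrays of the groups were apart for both, which passing the test made likely. They were apart for 24.4% of all tested genes.

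GFPT1, the entry enzyme of that route, was chosen for naming after its value was seen and was at -0.30 without passing (limma adjusted p = 0.056). The genes of the glucuronic acid branch, UGP2 and UGDH, also outside the naming rule, were at 0.05 and 0.06 and did not pass. UAP1 kept its call without control siRNA replicate 1 and lost it without any other single array, with limma adjusted p up to 0.091 without CONCR siRNA replicate 2. GNPNAT1 was not called in any set of 5 arrays, with adjusted p of 0.056 without control siRNA replicate 1 to 0.16 without control siRNA replicate 2 by limma. It also lost it when arrays were centred on their medians.

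Enzymes that start and extend the sulphated glycosaminoglycans, the protein-bound relatives of hyaluronan, held 3 falls among 16 tested genes (list median -0.01). Of all tested genes 2.01% were lower. CHSY1, a chondroitin synthase, read 5.72, 5.93 and 5.92 on the CONCR siRNA arrays, against 6.44, 6.56 and 6.51 on the control siRNA arrays. This was a fall of 0.65 on the log2 scale (1.57-fold, SE 0.07, limma adjusted p = 0.011). EXT1, a subunit of the heparan sulphate polymerase, read 7.76, 7.70 and 7.73 on the CONCR siRNA arrays, against 8.26, 8.39 and 8.24 on the control siRNA arrays, and fell by 0.56 (SE 0.06, limma adjusted p = 0.0096).

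XYLT1, a xylosyltransferase that starts the linker on the core protein, read 6.17, 6.20 and 6.32 on the CONCR siRNA arrays, against 6.68, 6.71 and 6.67 on the control siRNA arrays. It fell by 0.46 (SE 0.06, limma adjusted p = 0.015). No CONCR siRNA array of these 3 genes reached the control siRNA range, which passing the test made likely. EXT2, the partner subunit of EXT1, was at -0.02 and did not pass; it was named after its value was seen. CHSY1 lost its call without control siRNA replicate 2 (limma adjusted p = 0.066) or 3 (0.059), and EXT1 without CONCR siRNA replicate 2 (0.056) or 3 (0.053). XYLT1 lost it without CONCR siRNA replicate 1 (0.071) or 2 (0.084) and without control siRNA replicate 2 (0.082) or 3 (0.065).

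**Figure D4:**
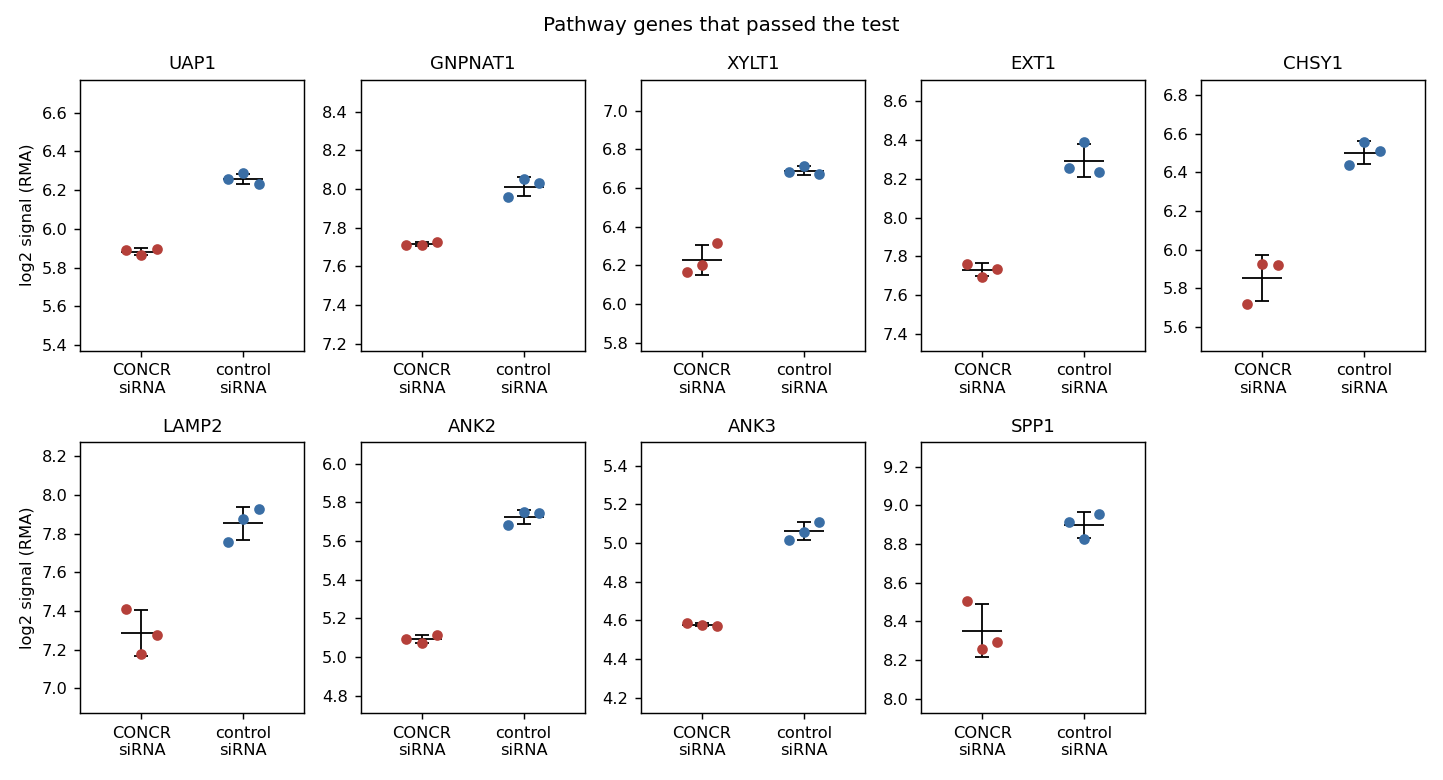
Log2 RMA signal on each array of the 9 pathway genes that were lower at a limma adjusted p under 0.05, CONCR siRNA at left (red) and control siRNA at right (blue). Points are arrays, black bars are the mean ± SD of 3 arrays, and each panel spans 1.4 log2 units around its own centre. The groups overlap for none of the 9, which their choice by the test made likely.

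In the list of CD44 linkers, sheddases, splicing factors and related genes, 3 of 15 tested genes fell and 0 rose in limma. The list median was 0.01. Over all tested genes 2.01% were lower and 0.6% higher. MSN, named after its value was seen, was higher at an unadjusted p below 0.05. ANK2, an ankyrin that links membrane proteins to the spectrin skeleton, read 5.09, 5.07 and 5.11 on the CONCR siRNA arrays, against 5.68, 5.75 and 5.75 on the control siRNA arrays. It fell by 0.63 (SE 0.05, limma adjusted p = 0.0034) and kept its call without each array in turn. Its relative ANK3 fell by 0.48 (SE 0.05, limma adjusted p = 0.0088). ANK3 read 4.58, 4.58 and 4.57 on the CONCR siRNA arrays, against 5.01, 5.06 and 5.11 on the control siRNA arrays.

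SPP1, which encodes osteopontin, a secreted ligand of integrins and CD44, read 8.51, 8.26 and 8.29 on the CONCR siRNA arrays, against 8.91, 8.82 and 8.95 on the control siRNA arrays. It fell by 0.55 (SE 0.08, limma adjusted p = 0.025). CONCR siRNA replicate 1 was the highest of its group for SPP1 and was still below every control siRNA array. ANK3 lost its call without CONCR siRNA replicate 2 or 3 (limma adjusted p = 0.054 for each) or control siRNA replicate 2 (0.056). SPP1 kept its call without CONCR siRNA replicate 1 and lost it without any other array, with limma adjusted p of 0.075 without control siRNA replicate 1 to 0.11 without CONCR siRNA replicate 3. The membrane to actin linkers EZR, RDX and MSN and the sheddases ADAM10, ADAM17 and MMP14, named after their values were seen, lay between -0.14 and 0.13 and did not pass.

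Lysosomal genes held 1 fall among 8 tested (list median 0.02), against 2.01% lower of all tested genes. LAMP2, a glycoprotein of the lysosomal membrane and not a hyaluronan-degrading enzyme, read 7.41, 7.18 and 7.28 on the CONCR siRNA arrays, against 7.76, 7.88 and 7.93 on the control siRNA arrays. It fell by 0.57 (SE 0.08, limma adjusted p = 0.021). LAMP2 no longer passed without CONCR siRNA replicate 2 (limma adjusted p = 0.086) or 3 (0.091), or control siRNA replicate 2 (0.10) or 3 (0.085). HGSNAT, an acetyltransferase of heparan sulphate breakdown, was at 0.15 (limma adjusted p = 0.27). The exoglycosidases HEXA and GUSB, which trim hyaluronan fragments, were at 0.02 and 0.07 without passing and were named after their values were seen.

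Of hyaluronan-binding matrix proteins, 15 tested genes had signals above the filter in both groups, and 0 passed in limma, with 1, ITIH5, at an unadjusted p below 0.05 (list median 0.04). ITIH5, an inter-alpha-trypsin inhibitor heavy chain, was at -0.14 (limma adjusted p = 0.28). HABP2, a plasma serine protease named for binding hyaluronan, read 4.34, 4.25 and 4.39 on the CONCR siRNA arrays, against 3.98, 3.91 and 3.93 on the control siRNA arrays. The log2 difference of HABP2 was 0.39. Every control siRNA array was below the filter's log2 signal of 4, so HABP2 entered the fit only through the arrays where it was high, and its difference is a description with no p.

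Other synthase, hyaluronidase and receptor genes were mostly too dim to test. Of 9 with a cluster, 7 read under 4 on all arrays (HYAL4, LAYN, LYVE1, SPAM1, STAB2, TLR2 and TLR4). HMMR, a hyaluronan receptor that also acts on the mitotic spindle, was at -0.07 (limma adjusted p = 0.74). STAB1, a scavenger receptor, was at 0.02 (limma adjusted p = 0.95). In limma 0 of these 2 passed, and 0 had an unadjusted p below 0.05.

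The 5 genes whose profile over the 6 arrays was nearest to that of CEMIP2 were METAP2, PSMD10, RDH11, NEK7 and RAB31. Nearness was the Euclidean distance between log2 signals centred on each gene's own mean, and it ran from 0.15 for METAP2 to 0.36 for RAB31. METAP2, a methionine aminopeptidase, read 6.88, 6.75 and 6.85 on the CONCR siRNA arrays, against 8.26, 8.26 and 8.35 on the control siRNA arrays. All 5 had lower signals on every CONCR siRNA array than on any control siRNA array, as CEMIP2 had. This follows from choosing them by nearness to CEMIP2, and the nearness is a description over 6 arrays.

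The genes next to these 8 on their chromosomes were looked at after the other values were seen, taking the 3 nearest tested genes in RefSeq order on each side. Of 36 such neighbours 3 were lower (8.33%, against 2.01% of all tested genes) and 0 were higher in limma, with 2 higher at an unadjusted p below 0.05. By that unadjusted limma p 927 of 15473 genes were higher, without those that passed the filter through 1 group. KLF9 and C9orf85, the nearest tested genes on either side of CEMIP2, were at 0.09 and -0.09 and did not pass. PTAR1, the 3rd tested gene away, was at -0.49 (limma adjusted p = 0.043). Near CD44, PDHX, a subunit of the pyruvate dehydrogenase complex, was at -0.48 (limma adjusted p = 0.022), opposite in sign to CD44. ZHX2, a transcriptional repressor gene and a nearest tested neighbour of HAS2, was at -0.61 (limma adjusted p = 0.0065).

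Markers of other cell types were measured too, and part of each list read above the filter. Of 5 fibroblast markers, COL1A1, COL1A2 and PDGFRB were tested, and DCN and LUM read under 4 on all arrays. Their summed signal was 6.69 to 6.78 on the log2 scale with CONCR siRNA, against 6.68 to 6.81 with control siRNA. Of 6 endothelial markers, CDH5, CLDN5 and VWF were tested, and KDR, PECAM1 and TEK read under 4 on all arrays. The sums were 6.82 to 6.85 with CONCR siRNA, against 6.72 to 6.87 with control siRNA. Of 5 leukocyte markers, CSF1R was tested, CD14 was above 4 on 1 array of each group and was not tested, and CD3E, LYZ and PTPRC read under 4 on all arrays. The sums were 5.92 to 5.99 with CONCR siRNA, against 5.86 to 5.9997 with control siRNA. The sums of the groups overlapped for each list. Across these lists 0 tested markers passed in limma, and 0 had an unadjusted p below 0.05.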

How the data were processed

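The deposited values are log2 signals that the authors made by RMA with Affymetrix Power Tools, per the submitters' processing notes. The version and the genome build are not given in the sources used here. RMA's quantile step makes arrays nearly equal in distribution, so a change in total RNA per cell cannot be seen. RNA came from A549 cells, and cDNA was made from 300 ng, per the labels' protocols. Arrays have no read depth, and their number limits the precision.

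Of 70523 probe sets, 67528 were transcript clusters, and the other 2995 were left out by the form of their identifiers. A cluster was tested where its log2 signal exceeded 4 on at least 3 of 6 arrays, which left 32540 clusters and 15497 genes. Of clusters with annotation, 23781 had 1 symbol and 1543 several, and 42204 had none here. Symbols were updated by Entrez identifier for 21497 clusters from RefSeq (GRCh38.p14), which also gave the promoter sequences. Promoter windows were taken for 7 of the 8 genes; HAS2 was not among them.

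The comparison of the groups used limma 3.58.1 under R 4.3.3 (lmFit and eBayes, two-sided, Benjamini-Hochberg over all tested clusters, threshold 0.05). Differences are CONCR siRNA minus control siRNA. Exact permutation tests used scipy 1.17.1. The fit was tested on simulated data. Members, gene lists and tests were chosen with earlier results of these data known. Named were all members, the list genes that passed, up to 2 of smallest p in lists with fewer calls, and the 5 genes nearest to CEMIP2 in profile. Genes that passed the filter through 1 group alone (24 of all tested genes) are given with no p. The alternatives were a replicate block, no filter, a filter at 6, array weights, a robust fit with an intensity trend, centring on medians, a further quantile normalization, leaving out each array and other clusters of a gene.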

Additional observations from a re-analysis of the deposited data

How the results depend on the processing

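CEMIP2 stayed between -1.45 and -1.35 under all 14 alternatives. CEMIP2 adds 1 to every count of hyaluronan genes. Its fall was known beforehand, so this is not read as a test, and the count turns on CD44 alone. With CEMIP2 included the count was 2 in the fit used above and 1 to 2 when 1 array was left out. It was 1 with the replicate number as a block and 1 when both CD44 clusters were averaged. In each case of 1, CD44 did not pass, with limma adjusted p = 0.12 under the block and 0.062 with averaged clusters. The brighter CD44 cluster was called under the other 6 settings that kept all arrays. HYAL2 ran from -0.062 without control siRNA replicate 3 to 0.021 without control siRNA replicate 1, where its sign turned. Called clusters numbered 613 (125 higher, 488 lower). They were 129 to 411 with 1 array left out (11 to 56 higher, 109 to 355 lower) and 51 under the replicate block (4 higher, 47 lower). They were 238 without a filter (36 higher, 202 lower), 1102 with the filter at 6 (342 higher, 760 lower) and 965 with trend and robust estimation (252 higher). Quantile normalization gave 213 higher and 536 lower, and median centring 65 higher and 367 lower. The pathway genes past the threshold, 9 without HABP2, became 2 to 7 with 1 array left out, 0 under the block by limma and 4 without a filter. HABP2 is in none of these counts. Under the block 13 of 67 pathway genes, a total that includes HABP2, had an unadjusted limma p below 0.05. The share over all tested genes under the block was not computed, so nothing is read from that count. Arrays with the same replicate number did not deviate together (correlations -0.27, -0.16 and -0.08), and no array correlated best with its own number, so the number is not taken as a pairing. The cause of these movements was not tested. Genes near the filter, such as HABP2 and CEMIP, or below it, such as HAS2, are limited by low signal.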
